A study of Drosophila melanogaster with 2 samples.

Results

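MicroRNA genes were examined in peak lists from chromatin immunoprecipitation and sequencing (ChIP-seq) of Tailless-GFP in Drosophila melanogaster embryos. The members were all genes with a pre_miRNA transcript, the annotated hairpin, in Ensembl release 115 on the 6 chromosome arms, which gave 260 microRNA genes among 17683 annotated genes on those arms. In that annotation pre_miRNA is a transcript biotype, and the hairpins themselves were 50 to 174 bp long with a median of 92 bp. Hairpins on 1 strand with gaps of at most 10 kb were joined, which gave 203 microRNA loci.

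There was 1 group, with biological replicates 1 and 3 (n = 2), and no second condition. Both came from whole embryos of pooled sex, collected at 0 to 4 hours, of strain 8T-GFP, a transgenic line that stably carries tll with GFP fused to its C terminus, and an antibody to GFP was used. The signal comes from the tagged protein of this line, and whole embryos mix cells with and without Tailless, so a signal cannot be assigned to a cell type. The lists were those of each replicate, of the replicates pooled (30000 summits each), and a thresholded list of 4045 summits, which the authors cut at a reproducibility threshold. All lists were called against 1 shared control alignment, read counts were not part of them, and the depth is therefore unknown. A summit is the position of highest enrichment in an interval, and its signal value is the authors' own enrichment score, on an unstated scale that differs between the pooled and the replicate lists.

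MicroRNAs are short RNAs that pair through a seed near their 5′ end with messenger RNAs and lower their translation or stability. They are cut from hairpins in longer primary transcripts by Drosha and Pasha in the nucleus and by Dicer-1 in the cytoplasm, and act in the protein AGO1. Hairpins that fill a whole short intron, called mirtrons, are released by splicing instead of by Drosha. Tailless, a nuclear receptor, acts mainly as a repressor, first in the terminal regions of the early embryo and later in the brain.

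The mature sequences of the microRNAs with the strongest nearby summits, or shared between neighbours, are shown first, because the seed tells which hairpins have targets in common. They were taken from the RefSeq annotation of the Release 6 assembly, which held 481 mature sequences and at least 1 for each of the 260 genes. Letters are 5′ to 3′, and capitals mark the seed, bases 2 to 8.
mir-10-5p: aCCCUGUAgauccgaauuuguu
mir-9a-5p: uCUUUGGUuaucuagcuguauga
mir-279-3p: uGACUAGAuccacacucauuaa
mir-996-3p: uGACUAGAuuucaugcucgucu
bantam-3p: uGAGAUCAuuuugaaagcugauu
mir-13a-3p: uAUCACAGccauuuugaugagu
mir-13b-1-3p: uAUCACAGccauuuugacgagu
mir-2c-3p: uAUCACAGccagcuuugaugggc
mir-11-3p: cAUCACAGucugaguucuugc
mir-92a-3p: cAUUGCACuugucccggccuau
mir-92b-3p: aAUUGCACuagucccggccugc
mir-iab-4-5p: aCGUAUACugaauguauccuga
mir-iab-8-5p: uUACGUAUacugaagguauaccg
mir-1-3p: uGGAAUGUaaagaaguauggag
The neighbours mir-279 and mir-996 had 1 seed in common, as did mir-92a and mir-92b. The neighbours mir-13a, mir-13b-1 and mir-2c also had 1 seed, which mir-11 shared from another locus. The hairpins of mir-iab-4 and mir-iab-8 are the opposite strands of the same DNA, and their seeds differed.

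The windows of 101 bases around the strongest summits of the best-marked intergenic microRNA loci are shown on the plus strand of Release 6, the same assembly as dm6. Capitals mark the word AAGTCA, the recognition word of Tailless, or its reverse complement TGACTT, and windows with none are in lower case throughout.
mir-10 downstream summit, chr3R:6805051-6805151: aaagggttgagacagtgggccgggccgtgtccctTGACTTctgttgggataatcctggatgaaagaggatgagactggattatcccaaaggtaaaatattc
mir-10 upstream summit, chr3R:6810641-6810741: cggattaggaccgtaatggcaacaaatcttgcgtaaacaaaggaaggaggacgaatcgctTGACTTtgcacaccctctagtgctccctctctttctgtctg
bantam, chr3L:640477-640577: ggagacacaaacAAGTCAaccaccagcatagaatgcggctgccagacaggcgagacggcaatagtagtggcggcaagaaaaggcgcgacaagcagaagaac
mir-9a, chr3L:19560813-19560913: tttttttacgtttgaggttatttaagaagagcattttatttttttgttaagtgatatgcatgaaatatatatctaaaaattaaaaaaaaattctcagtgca
mir-279 and mir-996, chr3R:29214421-29214521: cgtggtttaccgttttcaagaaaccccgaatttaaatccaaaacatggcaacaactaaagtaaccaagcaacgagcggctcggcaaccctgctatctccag
Both strong summits at mir-10 and the one at bantam held the word, and those at mir-9a and at mir-279 and mir-996 did not. A match is a description of the letters in this window and does not show binding.

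Of the 260 microRNA genes, 71 had a thresholded summit within 5 kb of the hairpin (27.3%, exact 95% interval 22.0 to 33.2%). Such genes are called bound here for short. Among positions taken every 1 kb along the arms 18.7% lay as near to a summit, among the 5′ ends of protein-coding genes 29.3%, and among tRNA genes 32.1%. The share of microRNA genes was therefore near that of other genes, and the count is not a result about microRNAs as a class. Intervals cover counting error only, since neighbouring hairpins and summits are not independent. By locus the count was 54 of 203 (26.6%, exact 95% interval 20.7 to 33.2%).

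Close to the hairpin the share was lower than at protein-coding starts. Within 500 bp of the hairpin 9 of 260 microRNA genes had a thresholded summit (3.46%), against 11.5% of protein-coding 5′ ends and 2.69% of positions. Within 2 kb the shares were 11.5%, 17.5% and 9.09%, and within 10 kb 45.8%, 43.6% and 30.2%. The strongest summit of none of the 71 bound genes lay inside a hairpin, although a weaker summit of mir-4962 did, and the distance of the strongest from it ranged from 87 to 4999 bp with a median of 3054 bp. A hairpin is not the start of its transcript, and these differences were not tested.

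**Figure D1:**
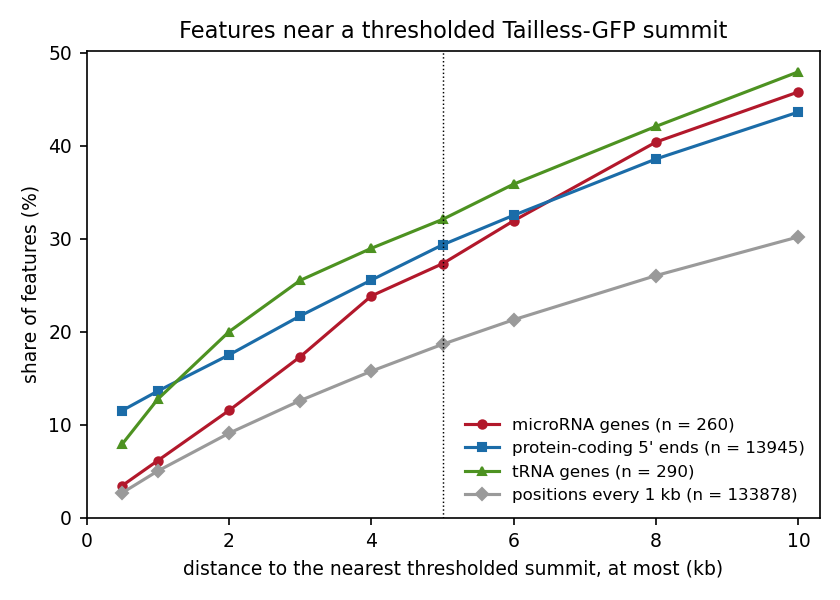
Share of features (%, vertical axis) whose nearest thresholded summit lies within a given distance (kb, horizontal axis), for microRNA genes, protein-coding 5′ ends, tRNA genes and positions every 1 kb, with 5 kb as a dotted line. MicroRNA genes follow the positions at 0.5 kb (3.46% against 2.69%) and reach the protein-coding 5′ ends by 6 kb (31.9% against 32.5%).

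In the pooled list, 196 of 260 microRNA genes had a summit within 5 kb (75.4%, exact 95% interval 69.7 to 80.5%), against 56.5% of positions, 78.3% of protein-coding 5′ ends and 92.4% of tRNA genes. The list of replicate 1 placed a summit near 199 genes and that of replicate 3 near 198. In total 635 pooled and 85 thresholded summits lay near microRNA genes. The 85 thresholded summits had a median signal of 275.5 (range 196 to 1779), against 287 for the other 3960. Among the 125 genes with a pooled but no thresholded summit, the strongest pooled signal ranged from 47.7 to 194 with a median of 108. The thresholded list ended at a signal of 194.6, so the line between bound and unbound is a line through a continuous range.

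The members nearest to the 5 kb limit show the same for distance. The thresholded summit nearest to mir-4975 lay at 4999 bp, that of mir-2501 at 4898 bp and that of mir-4943 at 4783 bp. Just outside were mir-4978 at 5016 bp, mir-1014 at 5031 bp and mir-14 at 5351 bp.

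The microRNA genes of the Hox complexes were described next. These lie between the Hox genes that set segment identity, and some of their microRNAs are known to act on Hox messenger RNAs. Of the 4 such genes 3 were bound, mir-10 in the Antennapedia complex and mir-iab-4 and mir-iab-8 in the bithorax complex, and mir-993 was not. Since mir-iab-4 and mir-iab-8 are opposite strands of the same DNA, they share their summits, and each counts as a locus of its own. Thresholded summits were dense in both complexes, with 52 in 338 kb of the Antennapedia complex (153.9 per Mb) and 47 in 316 kb of the bithorax complex (148.9 per Mb), against 30.2 per Mb over the 6 arms. The complexes hold many Hox gene enhancers, and a summit there need not belong to the microRNA.

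The hairpin of mir-10 (chr3R:6809506-6809582, minus strand) is intergenic, between the Hox genes Dfd and Scr. Its downstream summit at position 6805101, 4405 bp from the hairpin, had a signal of 1779 and rank 20 of the thresholded list, with 953 in replicate 1 and 842 in replicate 3 (log2 mean 9.81 ± 0.13, SD, n = 2). Its upstream summit at position 6810691, 1109 bp from the hairpin, had a signal of 1576 and rank 32, with 823 and 766 (log2 mean 9.63 ± 0.07, SD, n = 2). These are the strongest summits at any microRNA gene, and both replicates placed them high, at ranks 21 and 19 for the first and 34 and 30 for the second. A further thresholded entry in the interval of the upstream summit had a signal of 388. The nearest protein-coding start, that of Dfd, lay 13265 bp from the first summit and 18855 bp from the second.

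The hairpins of mir-iab-4 and mir-iab-8 (chr3R:16856275-16856342, plus and minus strands) are transcribed from opposite strands, and their microRNAs are known to lower the Hox proteins Ubx and Abd-A. Their strongest summit lay 3647 bp away, downstream of mir-iab-4 and upstream of mir-iab-8, with a pooled signal of 271, 149 in replicate 1 and 116 in replicate 3 (log2 mean 7.04 ± 0.26, SD, n = 2). A nearer summit at 867 bp had 197, close to the end of the list. Within 20 kb of the hairpins lay 8 thresholded summits, the strongest 13211 bp away with a signal of 743. Both hairpins were counted as intronic below because the protein-coding gene MSAmiP is annotated over them. Their values are far below those at mir-10, although the density of summits in the complexes was similar.

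At mir-993, in the same complex as mir-10, the nearest thresholded summit lay 9984 bp upstream with a signal of 252. Inside 5 kb the pooled list held 7 summits at mir-993, the strongest at 3822 bp with a signal of 130. Near it replicate 3 had an entry of 70.4 at 3812 bp, and replicate 1 had entries of 58.5 at 3690 bp and 46.1 at 3896 bp. A pair of summits 13419 and 13216 bp upstream of mir-993 had signals of 1156 and 1027, in the upper ranks of the list (85 and 117).

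**Figure D2:**
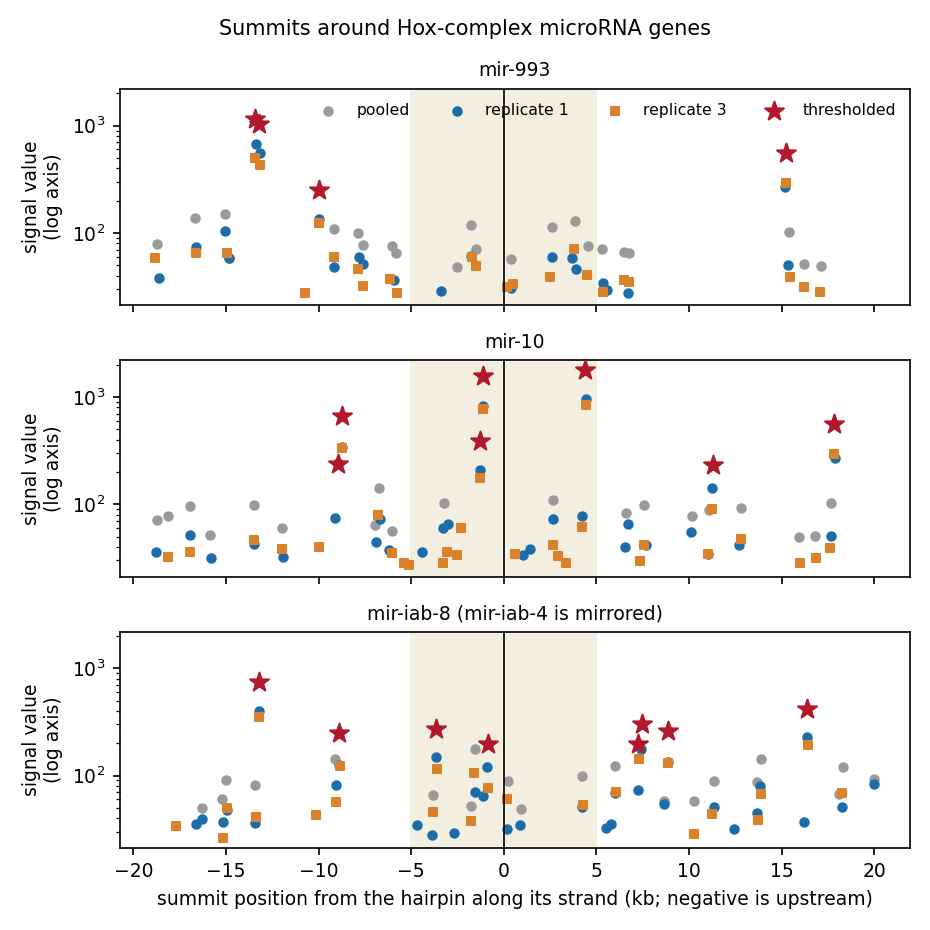
Signal value (log axis) of summits by position along the strand of the hairpin (kb, negative is upstream) for mir-993, mir-10 and mir-iab-8, in the pooled, replicate and thresholded lists, with the 5 kb window shaded. The stars of mir-10 reach 1779 and 1576 inside the window, those of mir-iab-8 271 and 197, and mir-993 has none inside it.

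Intergenic and intronic microRNAs were then set side by side. A hairpin was called intronic when it lay within an intron of a protein-coding gene, exonic or spanning when it touched an exon, and intergenic otherwise. Of 56 intergenic loci 14 were bound (25%, exact 95% interval 14.4 to 38.4%), against 15.7% of intergenic positions. Of 101 intronic loci 31 were bound (30.7%, 21.9 to 40.7%), against 17.8% of intronic positions. Of 43 exonic or spanning loci 6 were bound (13.95%, 5.30 to 27.9%), against 24% of exonic positions, which is the only one of these 3 classes with a share below that of its positions, though inside the interval. All 3 loci with hairpins of several classes were bound (exact 95% interval 29.2 to 100%), against 26.6% of all loci. These 3 hold 2, 5 and 12 hairpins and so cover more sequence than a single hairpin. In the largest, 2 of the 12 hairpins had a summit within 5 kb. The intervals of intergenic and intronic loci overlap widely, and their difference was not tested. Within 2 kb the order was reversed, with 10 of 56 intergenic and 13 of 101 intronic loci.

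**Figure D3:**
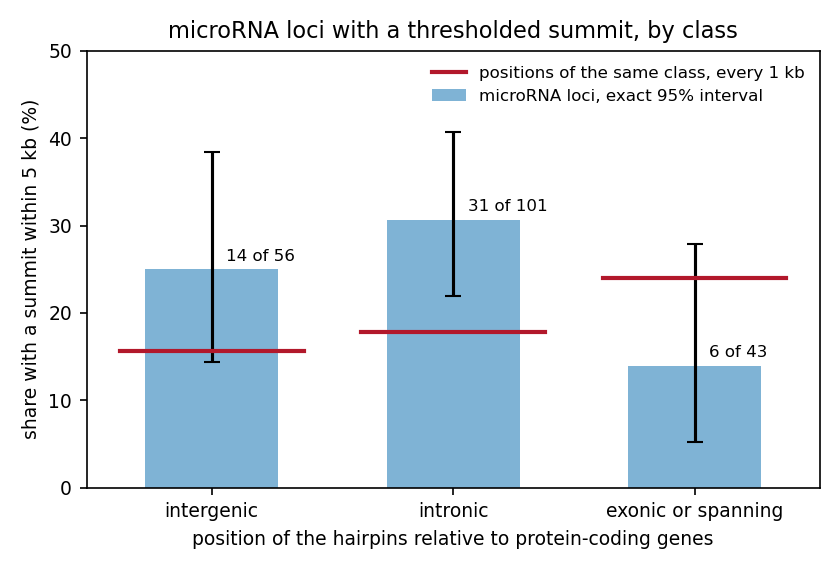
Share of microRNA loci with a thresholded summit within 5 kb (%, bars from 0) for intergenic, intronic and exonic or spanning loci, with exact 95% intervals as error bars and the share of positions of the same class as red lines. The bars stand at 25%, 30.7% and 13.95%, with intervals that overlap, and the lines at 15.7%, 17.8% and 24%.

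The classes differed in where the strongest summit stood relative to protein-coding transcription start sites (TSS). At 9 of 14 bound intergenic loci it was over 5 kb from any TSS, at 8 of 31 bound intronic loci, and at 1071 of all 4045 thresholded summits (26.5%). The median distance to a TSS was 6044 bp at intergenic and 920 bp at intronic loci. Within 500 bp of a TSS stood the strongest summit of 2 of 14 intergenic loci and of 13 of 31 intronic loci. At 19 of the 31 intronic loci the nearest TSS was that of the host gene. Distance from genes is part of how the classes were made, so these values describe the classes and were not tested. The strongest summit lay upstream of the hairpin at 11 of 14 intergenic loci (exact 95% interval 49.2 to 95.3%) and 18 of 31 intronic loci (39.1 to 75.5%). These intervals overlap, and a preference for either side was not tested. For 42 of the 71 bound genes the strongest summit was closer to a protein-coding TSS than to the hairpin (59.2%, 46.8 to 70.7%). This count is by gene, so a summit shared by a cluster counts once for each hairpin, and its interval ignores that. The choice of unit matters, as the strongest summit stood within 500 bp of a TSS at 47.9% of bound genes and 38.9% of bound loci.

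Among intronic loci, 28 of 88 with a host on the same strand and 3 of 13 with the host on the other strand were bound. Of the 34 hairpins of any class that fill an intron to within 5 bp of both exons, the position of mirtrons, 11 were bound (32.4%, exact 95% interval 17.4 to 50.5%). They include mir-1009, mir-2500 and mir-4917, which were classed as exonic or spanning and were unbound. Of the 91 intronic hairpins that do not fill an intron 26 were bound (28.6%, 19.6 to 39.0%). By chromosome, 14 of 58 genes on the X were bound (24.1%, 13.9 to 37.2%) and 57 of 202 on the autosomes (28.2%, 22.1 to 35.0%). Of positions every 1 kb, 13.2% on the X and 19.8% on the autosomes lay within 5 kb of a thresholded summit. In each of these comparisons of microRNAs the intervals overlapped.

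Next in signal among the intergenic loci after mir-10 came mir-9a, then mir-279 with mir-996, and then bantam, all well-studied microRNAs. At mir-9a, which limits the number of sensory organ precursors by repressing senseless, 4 thresholded summits lay 2573 to 4268 bp upstream. The strongest had a signal of 711, with 342 in replicate 1 and 376 in replicate 3 (log2 mean 8.49 ± 0.10, SD, n = 2), and 8443 bp separated it from the nearest TSS. At mir-279 and mir-996, which repress nerfin-1 in the sensory nervous system, the summit lay 1114 bp upstream of mir-279, with a signal of 597, 265 in replicate 1 and 330 in replicate 3 (log2 mean 8.21 ± 0.23, SD, n = 2). The second summit of these neighbours, at 382, stood 105 bp from a TSS of eEF1gamma, which encodes a translation elongation factor subunit.

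The hairpin of bantam (annotated as mir-ban, chr3L:642208-642288, plus strand), a growth microRNA that represses the cell death gene hid, had a summit of 560 at 1681 bp upstream. Replicate 1 gave 329 and replicate 3 gave 210 (log2 mean 8.04 ± 0.46, SD, n = 2), so the replicates stood farther apart than at mir-10 or mir-9a. At mir-957 the summit of 497 lay 1962 bp upstream and 15035 bp from the nearest TSS, with 248 and 251 in the replicates (log2 mean 7.96 ± 0.01, SD, n = 2). The hairpins of mir-13a, mir-13b-1 and mir-2c followed with 324 at 2662 bp from mir-2c, and 170 and 150 in the replicates.

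Intronic loci with most signal mostly held less studied microRNAs in introns of genes with known roles. In Tlk, which encodes a chromatin-linked kinase, mir-4962 had 4 thresholded summits, the strongest 810 bp away with a signal of 898, 500 in replicate 1 and 413 in replicate 3 (log2 mean 8.83 ± 0.19, SD, n = 2). Another, at position 3777432, lay inside the mir-4962 hairpin, with a signal of 301, 119 in replicate 1 and 182 in replicate 3 (log2 mean 7.20 ± 0.43, SD, n = 2). In tex, which encodes a subunit of the THO complex of RNA export, mir-4918 had 5 summits. The strongest had 779, and 399 and 379 in the replicates (log2 mean 8.60 ± 0.05, SD, n = 2), at 1162 bp from a TSS of tex. Weaker ones at mir-4918 stood 27 bp from a TSS of Sgt1, 63 bp from one of CG7483 and 159 bp from one of tex. In Atet, an ABC transporter gene, mir-1005 had a summit of 630 (307 and 335), 6134 bp from the nearest TSS. Both mir-4918 and mir-1005 fill their introns.

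The next intronic locus, mir-2491, lies within introns of CG42346 and fog, which encodes the secreted signal for cell shape change at gastrulation. Its summit of 577 (269 and 310 in the replicates) stood 1434 bp from a TSS of fog. The pair mir-281-1 and mir-281-2 in Oda, the gene of ornithine decarboxylase antizyme, had a summit of 454 (246 and 189) at 87 bp from the Oda TSS and 3715 bp from mir-281-1. In Tis11, which encodes a zinc finger protein of messenger RNA decay, mir-9377 had a summit of 443 (232 and 202), and 6058 bp lay between it and the TSS. In sty, which encodes the receptor tyrosine kinase inhibitor Sprouty, mir-2282 had 5 thresholded summits with signals of 233 to 423.

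Among exonic or spanning hairpins, mir-4949 at ATPsynC, which encodes a subunit of the mitochondrial ATP synthase, had a summit of 621 at 209 bp, with 320 and 305 in the replicates. That summit stood 22 bp from the TSS of ATPsynC. The summit of mir-4961 at ssx, a relative of Sex-lethal, had 448 (248 and 195) and stood 71 bp from the ssx TSS and 3114 bp from the hairpin. At mir-4949, where hairpin and TSS lie this close, a summit at the promoter of the host and a summit near the microRNA cannot be told apart.

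**Figure D4:**
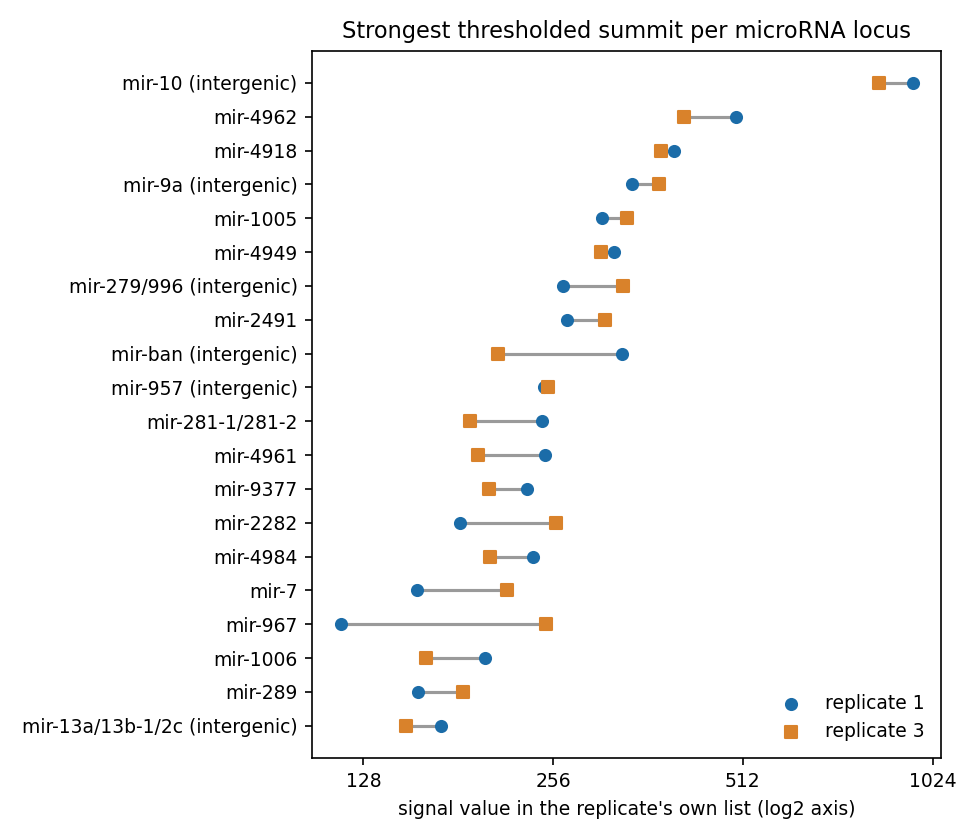
Signal value in the list of replicate 1 (circles) and replicate 3 (squares) at the strongest thresholded summit of the 20 microRNA loci with most pooled signal, in descending order (log2 axis), with intergenic loci named as such. At mir-10 the values are 953 and 842, and the widest gaps in the plot are those of mir-967 (118 and 250) and mir-ban (329 and 210).

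Clusters of hairpins share a primary transcript in many cases, so a summit near 1 of them counts for all. Of the 22 loci with 2 or more hairpins 8 were bound (36.4%, exact 95% interval 17.2 to 59.3%), and of the 181 with 1 hairpin 46 (25.4%, 19.2 to 32.4%). A locus with several hairpins covers more sequence, and the difference was not tested. At 7 of the 8 bound clusters all hairpins were within 5 kb of a summit. The exception was the group of 12 hairpins from mir-972 to mir-979 on the X, where mir-978 and mir-979, at Grip84, were within 5 kb of a summit of 205.

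Of the 11 clusters with 3 or more hairpins 4 were bound. The group of mir-310, mir-311, mir-312, mir-313, mir-2498, mir-991 and mir-992 had 1 summit of 220 (115 and 116 in the replicates), 1909 bp from mir-992 and 76 bp from the TSS of Nnf1a, a kinetochore gene. The X-linked group of mir-982, mir-303, mir-983-1, mir-983-2 and mir-984 had 1 summit of 203 (102 and 110), 14 bp from the TSS of CG3626. The other bound clusters of this size were that of mir-13a, mir-13b-1 and mir-2c, and the group around mir-978. Apart from the cluster of mir-13a, these summits stood at or near protein-coding starts and were in the lower part of the list.

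Unbound clusters included some of the best-known ones. The cluster of mir-309, mir-3, mir-286, mir-4, mir-5, mir-6-1, mir-6-2 and mir-6-3, which clears maternal messenger RNAs in the early embryo, had its nearest thresholded summit 64226 bp away. Its strongest pooled summit had a signal of 120, with 78.0 in replicate 1 and 74.8 in replicate 3. At the let-7 cluster (mir-100, mir-let7 and mir-125), known for its action at metamorphosis, the nearest thresholded summit lay 8381 bp from mir-125, and the pooled list held no summit within 5 kb. The cluster of mir-2a-1, mir-2a-2 and mir-2b-2 in spi, the gene of an EGF receptor ligand, had a pooled summit of 194.1, just under the end of the thresholded list. The pooled list also held no summit near the 6 hairpins from mir-959 to mir-964, and the cluster of mir-9c, mir-306, mir-79 and mir-9b reached 110.

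Grouping by seed gave another view of relatives at separate loci. Summits lay near all 6 hairpins with the seed AUUGCAC, which are mir-92a and mir-92b at jigr1 and mir-310 to mir-313, in 2 loci. Of the 14 hairpins with the seed AUCACAG 4 were bound, mir-13a, mir-13b-1, mir-2c and mir-11, and the other 10 were not, a share close to the 27.3% of all microRNA genes. Of mir-9a, mir-9b and mir-9c, which share the seed CUUUGGU, mir-9a was bound. Of mir-279, mir-996 and mir-286, which share GACUAGA, the first pair was. Hairpins in 1 locus share their summit, so these counts are not independent.

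A list of 38 developmental microRNA genes was followed whether bound or not. Of these 14 were bound (36.8%, exact 95% interval 21.8 to 54.0%), against 57 of the other 222 microRNA genes (25.7%, 20.1 to 31.9%), and the intervals overlap. A pooled summit lay near 32 of the 38 (84.2%, 68.7 to 94.0%), and the share of all microRNA genes, 75.4%, lies inside that interval. Of the 38, 8 are the hairpins of the mir-309 cluster. Bound members beyond those above included mir-7, in an intron of HnRNP-K and known from photoreceptor development, with 374 (156 and 216 in the replicates). That summit stood 1399 bp from a TSS of HnRNP-K and 1686 bp from the mir-7 hairpin. The pair mir-92a and mir-92b, known from neuroblasts, had 316 (168 and 173), at 244 bp from a TSS of jigr1 and 402 bp from mir-92a. In E2f1, a cell cycle gene, mir-11 and its neighbour mir-998 had 312 (165 and 151), and the muscle microRNA mir-1 had 265 (139 and 121) at 1034 bp upstream. Lower in the list were mir-8, a regulator of body growth, with 206 (137 and 86.9), and mir-263b, which protects sensory cells from death, with 196 (95.9 and 116), just above the end of the list.

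Unbound developmental members covered a wide range of pooled signal. The highest were mir-14, known from cell death and fat metabolism, with 178 (90.3 and 85.6), and mir-bft, the microRNA gene also called mir-263a, with 173 (72.4 and 87.1). Between 97.8 and 140.5 stood mir-315, the mir-309 cluster, the nervous system microRNA mir-124 and mir-276a. Below 90 were mir-276b (82.0), mir-184 (78.2), mir-31a (69.3), and mir-277 and mir-34 (49.0 for both). Within 5 kb of mir-100, mir-125, mir-let7, mir-133, mir-278 and mir-31b the pooled list had no entry. A pooled list cut at 30000 entries sets that limit, so weaker enrichment there is not detectable.

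**Figure D5:**
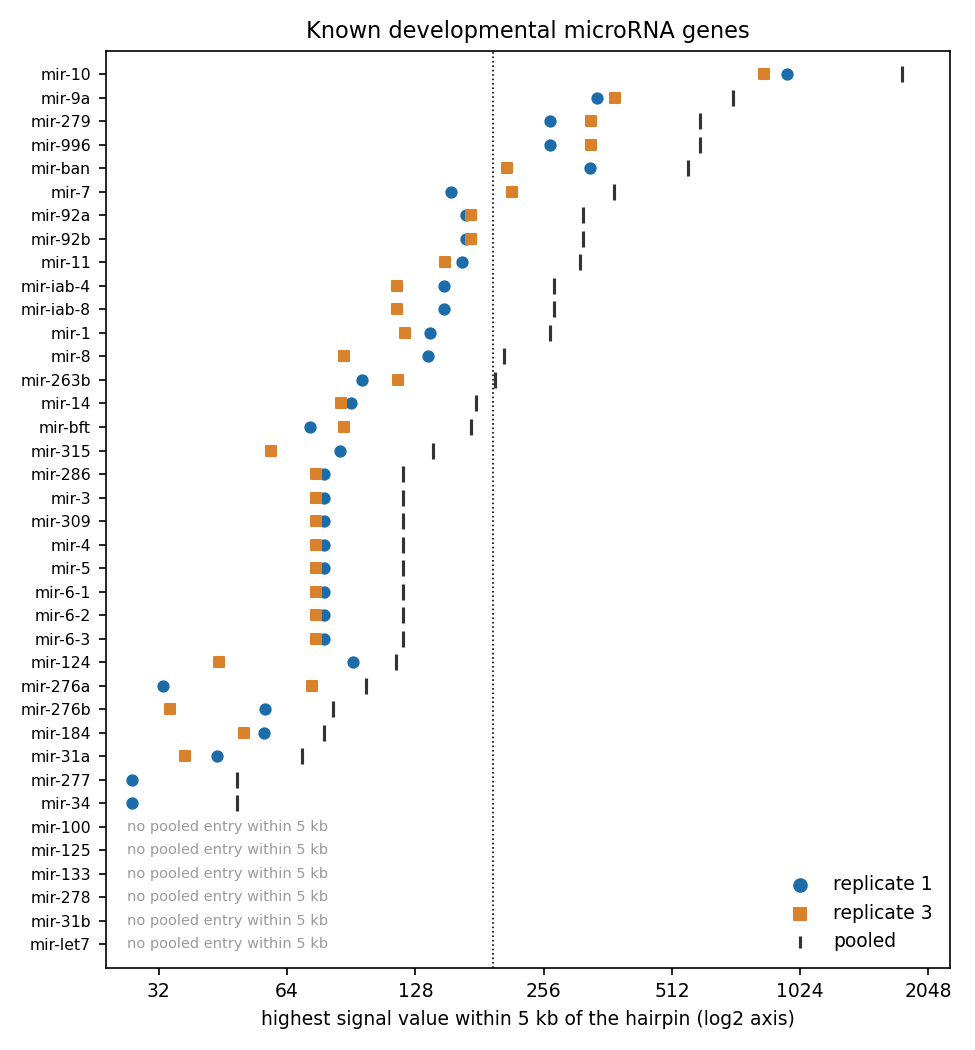
Highest signal value within 5 kb of each of 38 developmental microRNA genes in the lists of replicate 1 (circles), replicate 3 (squares) and the pooled replicates (bars), on a log2 axis, with the end of the thresholded list at a pooled signal of 194.6 as a dotted line. The pooled values of 14 genes lie right of the line, led by mir-10, and 6 genes have no pooled entry.

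The 5′ ends of primary transcripts were examined because a hairpin can lie far inside its transcript. Annotated non-coding RNAs on the same strand covered 51 of the 260 hairpins, and belonged to 36 non-coding RNA genes. A thresholded summit lay within 500 bp of the 5′ end of 5 of these 36 (13.9%, exact 95% interval 4.67 to 29.5%), against 5.75% of 2520 non-coding RNA 5′ ends. The interval includes the share of all non-coding RNAs. These 5 were lncRNA:CR31044 over mir-279 and mir-996, at 91 bp with a signal of 597, lncRNA:CR45911 over mir-13a, mir-13b-1 and mir-2c, at 203 bp with 324, and lncRNA:CR45916 over mir-9a, at 78 bp with 240. The others were lncRNA:CR43314 over mir-bft, at 41 bp with 435, and lncRNA:iab8 over mir-iab-8, at 461 bp with 334.

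The case of mir-bft shows how the distance rule works. Its hairpin was unbound, with 17632 bp to the nearest thresholded summit, and that summit stood 41 bp from the annotated 5′ end of its host transcript. At mir-993 the summit of 252 stood 701 bp from the 5′ end of lncRNA:CR42721, and at mir-10 a summit of 658 stood 1935 bp from the 5′ end of lncRNA:CR42651. The annotated 5′ ends of such RNAs may be incomplete, and which summit acts on which gene was not measured.

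Replicates were compared at the summits near microRNA genes. All 85 had an entry in both replicate lists, as did the strongest summit of all 71 bound genes. So did 4039 of all 4045 thresholded summits (99.9%), so the count says nothing particular about microRNA genes. Around the Hox-complex microRNAs each thresholded summit had the same signal and rank in the pooled list, such as 197 and rank 3941 near mir-iab-4. Agreement of the replicates at each single summit is therefore not assured by the list. The value in a replicate is that of its strongest entry that overlaps the summit's interval. Summits in 1 interval therefore share it, and so can summits in intervals that overlap each other. At bantam the summits of 560 and 376 lay in 2 overlapping intervals and both carry 329 and 210. The 85 summits lay in 81 intervals, and the distinct pairs of replicate values are fewer than these. Signal ranged from 78.3 to 953 in replicate 1 (median 151) and from 67.3 to 842 in replicate 3 (median 149). The Pearson correlation of log2 values was 0.867 and the Spearman correlation 0.750 over 85 summits, which share 1 control and were chosen by pooled signal. Over the 4039 summits of the whole list they were 0.861 and 0.784. The ratio of replicate 1 to replicate 3 had a median of 1.02 (0.472 to 2.75), and 45 of 85 summits were higher in replicate 1 (52.9%). At the other thresholded summits the median ratio was 1.11, and of all 4039 summits 64.8% were higher in replicate 1, a difference that was not tested. The highest ratio was that of mir-1011, with 185 in replicate 1 and 67.3 in replicate 3, at a summit 42 bp from the TSS of RpS30, and the lowest that of mir-967 in bun, with 118 and 250.

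The 4045 strongest summits of each replicate list, the length of the thresholded list, gave a separate count. Those of replicate 1 lay near 68 microRNA genes and those of replicate 3 near 66, and each shared 61 with the 71 bound genes. Both replicates named 53 genes, replicate 1 alone 15 and replicate 3 alone 13. Of the 71 bound genes, mir-4975 and mir-1013 were in neither set. Among the bound genes missed by 1 replicate were mir-8, named by replicate 1, and mir-263b, named by replicate 3. The pooled signal of the missed genes ranged from 196 to 247, the lower end of the thresholded range.

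The word AAGTCA was searched on both strands within 50 bp of each summit, without counting overlaps with other words. It was present at 17 of the 85 summits near microRNA genes (20%, exact 95% interval 12.1 to 30.1%), at 15.0% of all thresholded summits and at 5.18% of windows of the same length every 1 kb. In windows of 101 bases centred 500 bp to either side of the 85 summits the shares were 7.06% and 4.71%. The share near microRNA genes therefore had the overall share inside its interval. By locus, the strongest summit held the word at 4 of 14 intergenic and 6 of 31 intronic loci. Besides mir-10 and bantam these included the strongest summits of mir-1005, mir-281-1, mir-11 and mir-8. Within 500 bp of a TSS stood 30 of the 85 summits (35.3%, 25.2 to 46.4%), against 37.6% of the other thresholded summits.

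Genes of the microRNA pathway were read from their 5′ ends. Of 12 such genes 4 had a thresholded summit within 5 kb, against 30.6% of all protein-coding genes read the same way, and all 12 had a pooled summit, against 78.8%. These were pasha, the partner of Drosha, with 315 (144 and 163 in the replicates) at 1827 bp, and Cbp20, a nuclear cap-binding subunit, with 279 (165 and 99.8) at 135 bp. The gene loqs, whose product assists Dicer-1, had 268 (114 and 155) at 4768 bp, and AGO1 had 3 summits, the strongest with 246 (166 and 87.9) at 47 bp. The unbound genes were drosha, Ranbp21, Dcr-1, gw, Ars2, Cbp80, Nbr and Tailor, with strongest pooled signals from 104 at Cbp80 to 189 at gw. The count was near that of protein-coding genes in general.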

How the data were processed

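Per the labels, chromatin of both samples was fragmented by sonication and precipitated with an antibody to GFP. The authors deposited peak lists in dm6, per the file headers and labels: 1 for each replicate, 1 for the pooled replicates and 1 past an irreproducible discovery rate threshold. Which aligner, caller and threshold the authors used is not given in the sources used here. Summits were ranked and described by the deposited signal value. The deposited −log10 q-value had a ceiling in each list and was not used to rank. Control samples were not analysed here.

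Summits (start plus offset) were measured to the nearest base of each hairpin in Ensembl release 115 (BDGP6.54), with separate entries of mature microRNAs left out. Background was the same distance from positions every 1 kb, protein-coding 5′ ends and tRNA genes. Shares have exact binomial 95% intervals. With 1 group no test between conditions was possible. Distances and joining of hairpins were checked on simulated positions. Named were all Hox-complex microRNAs, the 12 loci with most signal, the 6 intergenic and 6 intronic ones with most, bound clusters of 3 or more hairpins, the developmental list, the 3 loci nearest to either side of 5 kb and the pathway genes. The members and lists were chosen with earlier results of these data known, and mir-bft, mir-967, mir-1011, mir-2282, the unbound clusters and the seed families were singled out after their values were seen. Python 3.11.15, numpy 2.4.6, pandas 2.3.3, scipy 1.17.1 and matplotlib 3.10.9 were used. Alternatives were distances of 2 and 10 kb, the strongest 2022 summits, 1 summit per interval, each replicate alone, other ways to join and class hairpins, and other word windows.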

Additional observations from a re-analysis of the deposited data

How the results depend on the processing

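Of 58 alternatives, 38 stayed within 1.5 times the count, or within the interval or replicate spread, and none could change sign, since all values are counts, shares or medians. The share of summits with an entry in both replicate lists is not among them, since nearly all thresholded summits have such entries. It was 100% at each setting run. A distance of 2 kb gave 30 bound genes, 26 loci and 13 intronic loci, and a median signal of 310.7. A distance of 10 kb gave 119 genes, 91 loci, 25 intergenic loci and 7 pathway genes. The strongest 2022 summits gave 31 genes, 25 loci, 6 intergenic loci, 16 intronic loci, 1 Hox-complex gene (mir-10), 1 pathway gene and a median signal of 383.0. When any gene, non-coding ones included, decided the class, 5 of 25 loci were bound as intergenic. At 1 kb the pooled list gave 109 genes. With a window of 25 bp the word AAGTCA was at 11.8% of summits.

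With either replicate left out, using the 4045 strongest summits of the other, the counts ranged from 66 to 68 genes, 50 to 53 loci, 13 to 15 intergenic loci, 28 to 32 intronic loci, 4 to 6 pathway genes and 3 Hox-complex genes, and AAGTCA from 16.2% to 19.3%. The whole lists of single replicates placed summits near 198 to 199 genes. The median signal ranged from 138.9 to 151.4, as replicate lists have a lower scale, with medians of 141.7 and 158.4 over those 4045 summits. Alternatives for the pathway genes, for entries in both replicates and for the pooled count in single replicates were added after the data had been seen. No paired analysis was possible because the samples form 1 group.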
